A study of Danio rerio with 20 samples.

Results

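The 5 genes described here, out of 32520 in the count table, are cdca3, troap, a CDC14B gene and a CDKN1B gene, whose products are known from mitosis or from exit from the cell cycle, and a PIF1 gene, which encodes a helicase of genome maintenance. They were chosen by their identifiers because their levels peak in the libraries labelled retinal ganglion cells, so their high level there chose them and is given as a description, without a test. The 20 libraries, 5 in each of 4 groups, were made from polyadenylated RNA of cells that had been sorted by reporter colour from the retinas of zebrafish embryos aged 42 hours. Every embryo carried the same 3 reporters, Tg(ath5:gap-RFP) together with Tg(crx:gap-CFP) and the Gal4-driven pair Tg(ptf1a:gal4,UAS:gap-YFP), and every group went through the same shift to a cooler incubation and back and the same anaesthesia. Photoreceptors were gated as ath5+,crx+,ptf1a-, amacrine and horizontal cells as ath5+,crx-,ptf1a+, retinal ganglion cells as ath5+,crx-,ptf1a-, and progenitors as negative for all 3. Each library came from 500 cells, and 25 retinas were pooled for each replicate, so the spread between replicates is a spread between pools. The gene ath5 is now named atoh7, and the cells gated as ath5+,crx-,ptf1a- are called the atoh7-only fraction below.

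A cell enters mitosis when cyclin-dependent kinase is freed of its inhibitory phosphates, and it leaves mitosis when the anaphase-promoting complex destroys cyclins and phosphatases reverse the kinase's work. CDK inhibitors of the Cip/Kip family then hold a cell that has divided for the last time out of a new cycle. In the zebrafish retina, atoh7 encodes a basic helix-loop-helix factor that is needed for retinal ganglion cells to form and that comes on in progenitors around their last divisions. The atoh7 reporter therefore marks a lineage that feeds several neuron classes, and a negative gate for crx and ptf1a takes what the other reporters leave.

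The label of the atoh7-only fraction was checked against marker genes. The summed level of 17 retinal ganglion cell markers was 4767 to 9527 counts per 1e+06 counts of the scaled library (CPM) in its 5 libraries and 4912 to 11447 CPM in the amacrine and horizontal libraries, against 598 to 2517 CPM in photoreceptors and 1448 to 1940 CPM in progenitors. These markers set the atoh7-only fraction apart from photoreceptors and progenitors but not from amacrine and horizontal cells. The sum holds atoh7 itself, at 2377 of the mean of 6069 CPM in the atoh7-only fraction and 796 of 1743 CPM in progenitors. Its separation from progenitors, which were gated as negative for that reporter, is therefore not independent of the gate. The POU factor pou4f2, a defining marker of retinal ganglion cells, averaged 94.3 CPM in the atoh7-only fraction and 121 CPM in amacrine and horizontal cells, and pou4f1 averaged 1.47 and 4.97 CPM. The atoh7 transcript itself averaged 2377 CPM in the atoh7-only fraction, 1810 CPM in amacrine and horizontal cells, 796 CPM in progenitors and 396 CPM in photoreceptors. RNA of the genes behind the 2 negative gates was present in the atoh7-only fraction, with crx at 387 CPM (1278 CPM in photoreceptors) and ptf1a at 183 CPM (200 CPM in amacrine and horizontal cells).

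Markers of other cell types were also measured. Of 18 photoreceptor markers, 3 were at 0 in the atoh7-only fraction and the sum was 1860 to 2466 CPM there, against 6309 to 8271 CPM in photoreceptors. Of 18 amacrine and horizontal markers, 1 was at 0 and the sum was 1785 to 2644 CPM, against 4270 to 5504 CPM in the amacrine and horizontal group. The gap differed between these markers. In the atoh7-only fraction and in that group, foxn4 averaged 703 and 461 CPM, and pax6a 473 and 1008 CPM. The gene tfap2a averaged 13.9 and 616 CPM, tfap2b 23.9 and 472 CPM, and slc32a1 0.774 and 70.0 CPM. The share of amacrine and horizontal cells cannot be read from the sum. The sum of 19 progenitor markers was 21131 to 29654 CPM in the atoh7-only fraction and 19024 to 20434 CPM in progenitors, so these genes did not mark the all-negative gate. The all-negative gate did carry 280 to 402 CPM of 15 mesenchyme markers, while the sum stayed at or below 6.62 CPM in every library of the other groups. The sum of 9 blood and microglia markers ranged from 0.388 to 6655 CPM in progenitors and from 56.0 to 3027 CPM in amacrine and horizontal cells, and was 26.8 to 67.1 CPM in the atoh7-only fraction. The sum of 11 lens and epithelium markers was 10.4 to 92.1 CPM in the atoh7-only fraction and 12.5 to 411 CPM in progenitors. The part of these other cells in the results below was not tested. Total counts were 21.2 to 30.8 M per library, and 12531 to 17926 genes had at least 1 count. The scaling factor of amacrine and horizontal replicate 1 was 0.68, and those of the other 19 libraries were 0.86 to 1.12.

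All 5 genes were highest in the atoh7-only fraction, and for each of them all 5 libraries of that fraction lay above the other 15 libraries. The mean level there was 1.72 to 3.78 times that of the other groups for troap, 1.85 to 2.47 times for cdca3, 2.54 to 3.99 times for pif1, 1.64 to 2.09 times for cdc14b and 6.03 to 14.2 times for cdkn1ba. Of the 13838 genes that passed the filter on low counts, 12 (0.0867%) had all 5 of these libraries above the other 15, and nothing is read from that share because this pattern chose the members. All 5 members passed the filter, cdkn1ba through its counts in the atoh7-only fraction. Per kilobase of exon, which allows genes to be compared, the mean level in the atoh7-only fraction was 257 CPM per kb for cdca3, 71.6 for cdc14b, 65.2 for troap, 22.0 for pif1 and 2.14 for cdkn1ba. In bulk samples, a larger share of cells that express a gene and more RNA per cell cannot be told apart.

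**Figure D1:**
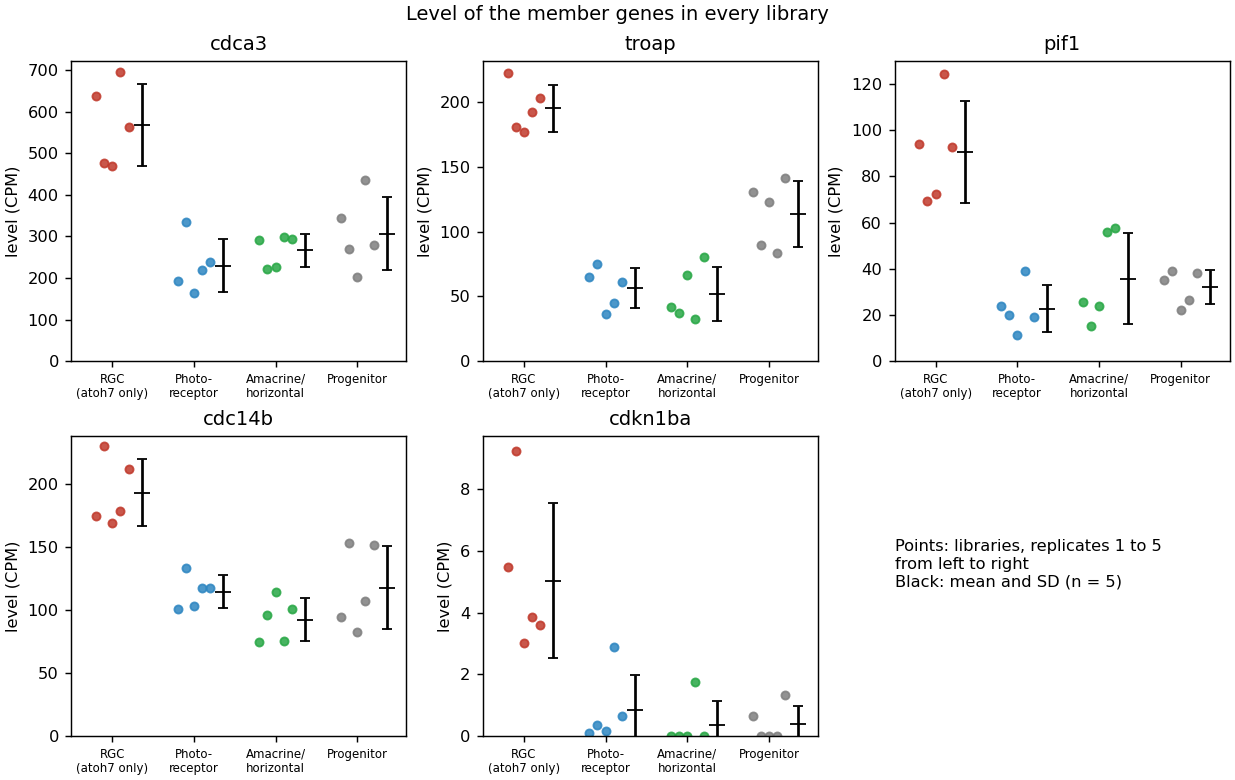
Level of the 5 member genes in CPM in every library, 1 panel per gene; points are libraries in the order of replicates 1 to 5, and black marks are the mean and SD (n = 5), cut at 0. The 5 atoh7-only libraries lie above the other 15 in every panel, by the narrowest margin in cdkn1ba, where 2.88 CPM in photoreceptor replicate 4 comes close to the 3.03 CPM of the lowest atoh7-only library, and progenitors form a middle group for troap.

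The first gene, cdca3 (ENSDARG00000070656, chromosome 16, 12052010 to 12060782 on the minus strand of GRCz11, exon length 2211 bases), encodes an F-box-like protein known in vertebrates as a trigger of mitotic entry that helps an SCF ubiquitin ligase remove the Wee1 kinase. Its level in the atoh7-only replicates 1 to 5 was 638, 476, 471, 696 and 562 CPM. It was the most abundant of the 5 genes in that fraction, and its replicates varied by 17.4% (coefficient of variation). Photoreceptors gave 192, 334, 165, 220 and 239 CPM. Amacrine and horizontal cells gave 291, 221, 225, 300 and 294 CPM. Progenitors gave 344, 270, 203, 435 and 281 CPM. The lowest atoh7-only library lay 1.08 times above the highest of the rest, which was progenitor replicate 4. The other 3 groups overlapped, with means of 307 ± 87.7 CPM in progenitors, 266 ± 39.5 CPM in amacrine and horizontal cells and 230 ± 64.6 CPM in photoreceptors (SD, n = 5), against 569 ± 98.9 CPM in the atoh7-only fraction.

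The spindle gene troap (ENSDARG00000094977, chromosome 23, 27575539 to 27589829, minus strand, exon length 2994 bases) encodes the protein tastin, which in human cells is needed for a bipolar spindle and intact centrosomes. The atoh7-only replicates held 222, 181, 177, 192 and 203 CPM, the tightest set among the 5 genes with a coefficient of variation of 9.36%. Progenitors held 130, 89.6, 123, 83.1 and 142 CPM. These libraries stood between the atoh7-only libraries and all 10 libraries of the other neuron groups, with no overlap on either side. Photoreceptors held 64.8, 74.9, 36.6, 45.1 and 61.2 CPM. Amacrine and horizontal cells held 41.7, 36.9, 66.6, 32.8 and 80.2 CPM. The photoreceptor and the amacrine and horizontal values overlapped throughout. Group means were 195 ± 18.3 CPM in the atoh7-only fraction, 114 ± 25.8 CPM in progenitors, 56.5 ± 15.5 CPM in photoreceptors and 51.6 ± 20.7 CPM in amacrine and horizontal cells.

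The CDC14B gene (ENSDARG00000021483, chromosome 8, 1222132 to 1267247, minus strand, exon length 2697 bases), called cdc14b below, encodes a phosphatase of the family that in budding yeast drives mitotic exit by undoing the phosphorylation of CDK targets. The atoh7-only replicates gave 175, 230, 169, 179 and 212 CPM. Progenitor replicates 2 and 5 came closest, and the lowest atoh7-only library was 1.11 times the highest of the rest. Progenitors gave 94.7, 153, 82.4, 107 and 152 CPM. Photoreceptors gave 101, 134, 103, 117 and 118 CPM. Amacrine and horizontal cells gave 75.0, 96.1, 114, 75.4 and 101 CPM. Group means were 193 ± 26.6, 118 ± 32.7, 114 ± 13.2 and 92.3 ± 16.9 CPM in that order of groups, so progenitors and photoreceptors differed by less than either group's SD. Its exons share 551 bases with ENSDARG00000097367, a gene on the opposite strand, and counting ignored strand, so reads there cannot be assigned to either gene. That neighbour was at 0.0996 to 6.26 CPM in the 20 libraries and averaged 0.885 CPM in the atoh7-only fraction, far below cdc14b.

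The CDKN1B gene (ENSDARG00000029018, chromosome 4, 18592743 to 18595525, minus strand, exon length 2357 bases) lies on the chromosome on which the RefSeq gene table places cdkn1ba, and is called cdkn1ba below. It encodes a p27 protein, a Cip/Kip inhibitor of CDKs that in the mouse retina is known for its part in withdrawal from the cell cycle. Its counts in the atoh7-only replicates were 155, 260, 76, 84 and 98, which is 5.47, 9.24, 3.03, 3.85 and 3.61 CPM. It was the rarest of the 5 genes and the most variable in that fraction, with a coefficient of variation of 49.9%. Photoreceptors gave 2, 11, 4, 84 and 16 counts, or 0.0996, 0.367, 0.167, 2.88 and 0.667 CPM. Amacrine and horizontal cells gave 41 counts (1.77 CPM) in replicate 4 and 0 counts in the other 4 libraries. Progenitors gave 16 counts (0.663 CPM) in replicate 1, 34 counts (1.32 CPM) in replicate 5 and 0 counts in the other 3 libraries. A count of 0 allows a level of up to 3 counts, which is 0.093 to 0.149 CPM over the 20 libraries and covers counting error only. Outside the atoh7-only fraction, most of its counts in each group lay in 1 or 2 libraries. The lowest atoh7-only library was 1.05 times the highest other library, photoreceptor replicate 4, and without scaling of the libraries that ratio was 0.989, so the separation of this gene was lost while that of the other 4 members was kept. Its fold over the other groups also rested on those libraries. The fitted log2 difference from photoreceptors was 2.58, and 3.92 without photoreceptor replicate 4. That from progenitors was 3.65, and 4.90 without progenitor replicate 5. Without replicate 4 all amacrine and horizontal libraries were at 0, and no fold is given.

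The PIF1 gene (ENSDARG00000020289, chromosome 2, 17096161 to 17115256, minus strand, exon length 4123 bases), called pif1 below, encodes a DNA helicase that in budding yeast unwinds G-quadruplexes and limits telomerase. The atoh7-only replicates held 93.9, 69.2, 72.5, 124 and 92.8 CPM. Amacrine and horizontal cells held 25.5, 15.4, 23.7, 55.9 and 57.8 CPM. Progenitors held 35.1, 38.9, 22.2, 26.3 and 38.3 CPM. The amacrine and horizontal replicates 4 and 5 stood above the other 3 of their group and above all 5 progenitor libraries. Photoreceptors held 24.0, 20.02, 11.1, 39.1 and 19.2 CPM. The lowest atoh7-only library was 1.20 times the highest other library, and group means were 90.5 ± 22.0 CPM in the atoh7-only fraction, 35.6 ± 19.7 CPM in amacrine and horizontal cells, 32.2 ± 7.47 CPM in progenitors and 22.7 ± 10.3 CPM in photoreceptors.

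Differences among the other 3 groups did not enter the choice of members and were tested with edgeR's quasi-likelihood test, with Benjamini-Hochberg adjustment over all 13838 genes and a threshold of 0.05. They were read for 4 members only, because cdkn1ba had passed the filter through the atoh7-only fraction. In these comparisons troap was the only one of the 4 to change. It was lower in photoreceptors than in progenitors by a log2 difference of -1.01 (SE 0.26, edgeR adjusted p = 0.0248), a comparison in which 5.19% of all genes passed and 2.05% were lower. The amacrine and horizontal libraries were also lower than progenitors, by -1.14 (SE 0.26, edgeR adjusted p = 0.00734), where 11.1% of all genes passed and 5.51% were lower. All 5 progenitor libraries lay above the 10 photoreceptor and amacrine and horizontal libraries. The share of all genes with that separation was not counted, so nothing is read from it. Photoreceptors and amacrine and horizontal cells differed by 0.13 (SE 0.26, edgeR adjusted p = 0.843), in a comparison where 8.71% of genes passed. The difference from photoreceptors missed the threshold when photoreceptor replicate 3 (-0.88) or 4 (-0.94), or progenitor replicate 1 (-0.95), 3 (-0.97) or 5 (-0.92) was left out, and when no filter was applied (-1.01). Over 26 alternatives its adjusted p was 0.00348 to 0.0791. The difference from amacrine and horizontal cells missed it only in a fit of the 2 groups alone (-1.15), with adjusted p of 0.000152 to 0.0552 over the same alternatives. The mesenchyme markers given above were also higher in progenitors than in these 2 groups, and their part in the troap differences was not tested.

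The genes cdca3, cdc14b and pif1 did not pass in any of these 3 comparisons. For cdca3 the log2 difference was -0.41 between photoreceptors and progenitors (SE 0.21, edgeR adjusted p = 0.352), -0.20 between amacrine and horizontal cells and progenitors (adjusted p = 0.626) and -0.21 between the 2 neuron groups (adjusted p = 0.635). For cdc14b the values were -0.04 (adjusted p = 0.973), -0.35 (adjusted p = 0.291) and 0.31 (adjusted p = 0.386) in the same order. For pif1 they were -0.50 (adjusted p = 0.644), 0.15 (adjusted p = 0.870) and -0.65 (adjusted p = 0.334). Standard errors were 0.20 for cdc14b and 0.38 for pif1 in the first of these comparisons.

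Paralogs of the members were measured in the same libraries. The other CDKN1B gene, cdkn1bb, had 51.9 CPM per kb in the atoh7-only fraction, against 2.14 CPM per kb for cdkn1ba. Its mean level was 108 ± 17.0 CPM there, 119 ± 45.7 CPM in amacrine and horizontal cells, 69.8 ± 14.4 CPM in photoreceptors and 44.9 ± 18.1 CPM in progenitors. It was higher in the atoh7-only fraction than in progenitors by a log2 difference of 1.26 (SE 0.28, edgeR adjusted p = 0.0154), with no overlap of libraries. Its differences from photoreceptors (0.63, SE 0.28, edgeR adjusted p = 0.398) and from amacrine and horizontal cells (-0.15, SE 0.28, edgeR adjusted p = 0.924) did not pass. Thus the abundant p27 gene passed against neither neuron group, and the rare one was chosen for its peak in the atoh7-only libraries. The p57 gene cdkn1ca had the highest level of this family in the atoh7-only fraction, 296 CPM per kb, followed by its paralog cdkn1cb at 73.6, cdkn1bb at 51.9, the p21 gene cdkn1a at 2.37 and cdkn1ba at 2.14.

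In the atoh7-only replicates, cdkn1ca stood at 567, 788, 731, 456 and 710 CPM. Photoreceptors held 317, 213, 78.3, 60.3 and 127 CPM, and progenitors 168, 122, 175, 93.4 and 221 CPM, all below the atoh7-only libraries. Amacrine and horizontal cells held 376, 299, 557, 193 and 95.9 CPM, and replicate 3 reached into the atoh7-only range. The gene was higher in the atoh7-only fraction than in progenitors by 2.06 (SE 0.43, edgeR adjusted p = 0.00935) and than in photoreceptors by 2.03 (SE 0.43, edgeR adjusted p = 0.0115), and its difference from amacrine and horizontal cells was 1.1 (SE 0.42, edgeR adjusted p = 0.21). Neither cdkn1cb nor cdkn1a passed in any comparison of the atoh7-only fraction. Among the CDC14 genes, cdc14ab was at 3.55 CPM per kb in the atoh7-only fraction against 71.6 for cdc14b, did not pass against any group, and averaged 21.1 CPM there and 21.7 to 31.2 CPM elsewhere. The gene cdc14aa averaged 0.514 CPM or less in every group and was not tested.

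The partners of the members varied in their pattern. The SCF subunit skp1 averaged 533 to 554 CPM in all 4 groups. The kinase wee1, the target through which cdca3 is known, averaged 66.6 CPM in the atoh7-only fraction and 102 CPM in progenitors, with no comparison passing. The p27-targeting F-box gene skp2 was higher in the atoh7-only fraction than in amacrine and horizontal cells by 1.18 (SE 0.25, edgeR adjusted p = 0.0212), but its means of 154 CPM in photoreceptors and 167 CPM in progenitors were above the 120 CPM of the atoh7-only fraction. Its cofactor cks1b averaged 203 CPM there, 322 CPM in photoreceptors and 256 CPM in progenitors, and did not pass. Of the activators of the anaphase-promoting complex, cdc20 also had its highest mean in the atoh7-only fraction and passed against both neuron groups, with values given further on. The activator gene fzr1a averaged 170 ± 9.64 CPM in the atoh7-only fraction and was higher there than in photoreceptors by 1.02 (SE 0.22, edgeR adjusted p = 0.0117), while the rare fzr1b averaged 6.58 CPM and did not pass.

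Across 6 lists of cell cycle genes with 148 names, 129 genes other than the members were tested. Against progenitors, 5 rose in the atoh7-only fraction and 0 fell (3.88%, against 2.88% of all genes, 1.99% higher and 0.889% lower), with a median log2 difference of -0.01 against 0.03 over all genes. Against photoreceptors, 8 rose and 2 fell (7.75%, against 2.11% of all genes, 1.27% higher and 0.838% lower), with a median of 0.15 against 0.01. Against amacrine and horizontal cells, 9 rose and 0 fell (6.98%, against 0.824% of all genes, 0.6% higher and 0.224% lower), the median was 0.50 against 0.05, and 101 of 129 genes had a value above 0. The share of all genes with a value above 0 was not counted, so nothing is read from the 101. The 3 comparisons share the atoh7-only libraries. Without amacrine and horizontal replicate 1, the library with the lowest scaling factor, 6 rose and 3 fell against progenitors, 13 rose and 3 fell against photoreceptors, and 16 rose and 0 fell against amacrine and horizontal cells. Against progenitors, 7 rose and 3 fell with DESeq2, and 7 rose and 4 fell in a fit of the 2 groups alone. The number that passed against progenitors was 3 without photoreceptor replicate 4, progenitor replicate 3 or 4, or atoh7-only replicate 1, 4 or 5, and 2 without progenitor replicate 2 or 5. Amacrine and horizontal cells were also low in comparisons without the atoh7-only fraction. Photoreceptors against them gave 14 genes higher and 4 lower (13.95%, against 8.71% of all genes), with a median of 0.36 against 0.04. They themselves gave 6 higher and 19 lower against progenitors (19.4%, against 11.1% of all genes), with a median of -0.50 against 0.

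In at least 1 of the 3 comparisons of the atoh7-only fraction, 18 list genes rose (13.95% of those tested, against 3.39% of all genes) and 2 fell (1.76% of all genes fell). Of the 18, 4 rose in 2 comparisons, namely kpna2, cdc20, cdkn1ca and gadd45ga, and 0 rose in all 3, against 64 (0.462%) and 1 (0.00723%) of all genes. The counts of all genes include the members, and that 1 gene was the member cdca3, chosen for its peak in the atoh7-only libraries. The atoh7-only fraction had the highest of the 4 group means in 7 of 17 mitotic entry genes, 16 of 37 spindle and checkpoint genes and 14 of 35 anaphase and exit genes. The same held for 4 of 19 genes of CDK inhibition and exit from the cycle, 1 of 10 SCF partners and 0 of 11 other helicase genes, against 17.1% of all genes. The helicase list was a mixed one and was not limited to relatives of PIF1.

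**Figure D2:**
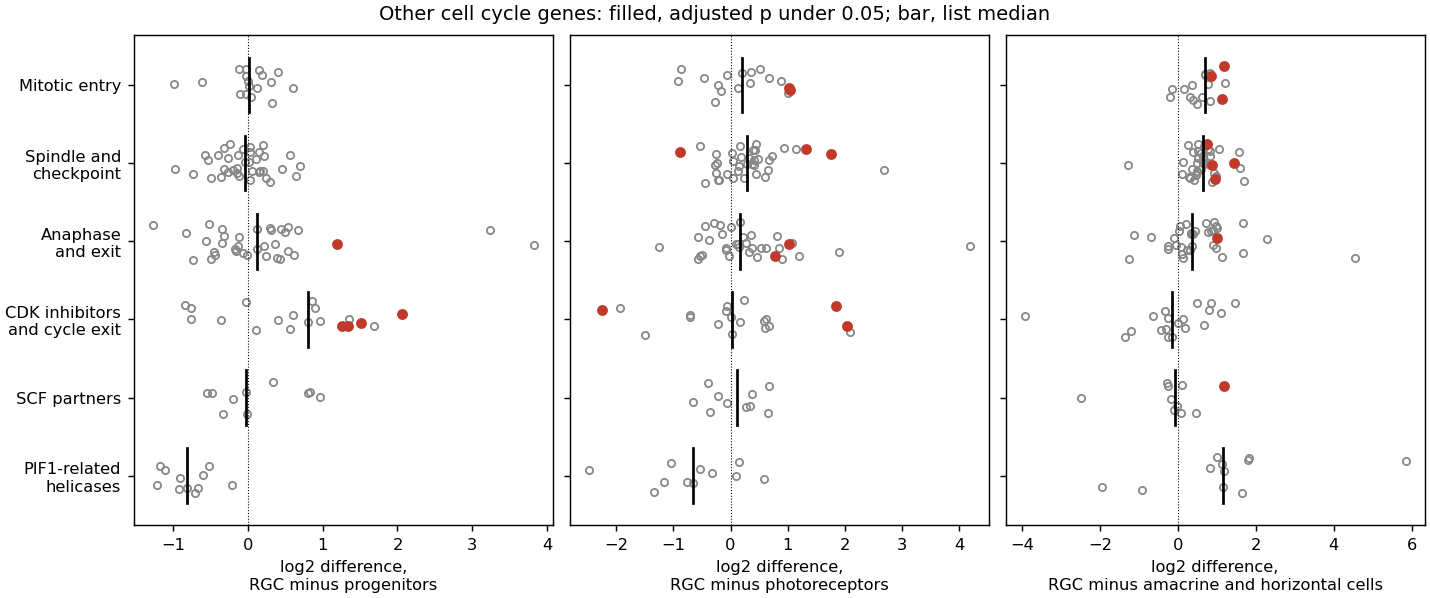
Log2 difference of each tested cell cycle gene between the atoh7-only fraction (RGC) and progenitors, photoreceptors, or amacrine and horizontal cells, by list, with the 5 members left out; filled points passed an adjusted p of 0.05 and bars are list medians. Against progenitors, 4 of the 5 filled points are CDK inhibitors or other genes of cycle exit, a list of 19 genes, and all 11 helicases lie below 0.

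The genes that passed differed between the comparisons. Against progenitors, 4 of the 5 belonged to the list of CDK inhibitors and exit from the cycle. They were cdkn1ca and cdkn1bb, the antiproliferative gene btg1 (log2 difference 1.33, SE 0.24, edgeR adjusted p = 0.00273) and the growth arrest gene gadd45ga (1.52, SE 0.40, edgeR adjusted p = 0.0398). The level of btg1 was 747 ± 123 CPM in the atoh7-only fraction, 296 ± 106 CPM in progenitors and 1217 ± 252 CPM in photoreceptors. The level of gadd45ga was 39.2 ± 12.8 CPM in the atoh7-only fraction and 90.6 ± 21.7 CPM in amacrine and horizontal cells, so neither gene had its peak with the members. The remaining gene was the midzone bundler prc1b, described below, and no gene of mitotic entry or of the spindle list passed against progenitors. The cycle exit list held 19 of the 129 genes tested. Against progenitors, 5 of its genes were higher and 1 lower in amacrine and horizontal cells (31.6%, against 11.1% of all genes). In photoreceptors 2 were higher (10.5%, against 5.19%). Its sum was 2401 to 2992 CPM in the atoh7-only fraction, 2493 to 2958 CPM in photoreceptors, 1936 to 2834 CPM in amacrine and horizontal cells and 1278 to 1816 CPM in progenitors.

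Against amacrine and horizontal cells, 8 of the 9 genes stood on the mitotic entry, spindle or anaphase lists, and the ninth was skp2. These lists held 17, 37 and 35 of the 129 genes tested, so most genes that pass can be expected to stand on them. The nuclear import receptor gene kpna2 was counted there through its place on the spindle and checkpoint list. The polo kinase gene plk1 was at 340 ± 64.2 CPM in the atoh7-only fraction and 156 ± 43.3 CPM in amacrine and horizontal cells, a log2 difference of 1.13 (SE 0.19, edgeR adjusted p = 0.00356). The mitotic cyclin gene ccna2 was at 459 ± 84.2 and 203 ± 47.0 CPM, a difference of 1.18 (SE 0.18, edgeR adjusted p = 0.00237). The microtubule depolymerase gene kif2c was at 146 ± 15.9 and 53.4 ± 25.3 CPM, a difference of 1.45 (SE 0.27, edgeR adjusted p = 0.00962). Progenitors held 298, 500 and 98.2 CPM of plk1, ccna2 and kif2c, and photoreceptors held 214, 421 and 128 CPM. For none of the 3 genes did the atoh7-only fraction pass against progenitors or photoreceptors. Photoreceptors were also above amacrine and horizontal cells for ccna2 (1.05, edgeR adjusted p = 0.000756) and kif2c (1.27, edgeR adjusted p = 0.00513). For plk1 that difference did not pass (0.46, edgeR adjusted p = 0.133).

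Against photoreceptors, the spindle gene tacc3 was at 132 ± 21.8 CPM in the atoh7-only fraction and 39.1 ± 15.15 CPM in photoreceptors, a log2 difference of 1.76 (SE 0.27, edgeR adjusted p = 0.000859), and progenitors held 127 ± 35.3 CPM. The 2 list genes that fell were the antiproliferative gene btg3, at 103 ± 14.3 against 491 ± 82.9 CPM (log2 difference -2.25, SE 0.25, edgeR adjusted p = 2.31e-05), and the kinetochore gene spc24, at 111 ± 20.1 against 205 ± 27.3 CPM (-0.89, SE 0.19, edgeR adjusted p = 0.0103). For btg3, the atoh7-only fraction, amacrine and horizontal cells and progenitors had similar means of 103, 91.8 and 106 CPM.

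Summed over a list, the levels of mitotic genes overlapped between the atoh7-only fraction and progenitors. The mitotic entry list summed to 2501 to 3089 CPM in the atoh7-only libraries, 2500 to 2839 CPM in progenitors, 2011 to 2510 CPM in photoreceptors and 1497 to 1918 CPM in amacrine and horizontal cells. The spindle and checkpoint list summed to 5581 to 7067, 4912 to 6476, 4328 to 5413 and 3479 to 4129 CPM in the same order. The anaphase and exit list summed to 2188 to 2548, 1921 to 2332, 1775 to 2105 and 1630 to 2146 CPM. In all 3 lists the atoh7-only and progenitor ranges overlapped. The atoh7-only libraries lay above every amacrine and horizontal library in all 3, and above every photoreceptor library in the spindle and anaphase lists. In the spindle list, kpna2 alone made up 882 of the mean of 6140 CPM in the atoh7-only fraction and 355 of 4819 CPM in photoreceptors. With kpna2 taken out of that sum, the atoh7-only and photoreceptor ranges overlap.

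The 11 helicases other than pif1 that were tested did not have their highest level in the atoh7-only fraction. Their sum, in which hells alone made up 140 of the mean of 243 CPM in the atoh7-only fraction, was 200 to 272 CPM in the atoh7-only fraction, 330 to 494 CPM in progenitors, 274 to 482 CPM in photoreceptors and 87.7 to 287 CPM in amacrine and horizontal cells, with replicate 1 the highest of the last group. All 11 had a lower mean in the atoh7-only fraction than in progenitors, with a median log2 difference of -0.81. Against amacrine and horizontal cells, the direction was that of pif1 for 9 of the 11, with a median of 1.15. None of the 11 passed the edgeR threshold in either comparison. The atoh7-only libraries lay below every progenitor and every photoreceptor library in this sum, whereas pif1 itself lay above all of them.

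**Figure D3:**
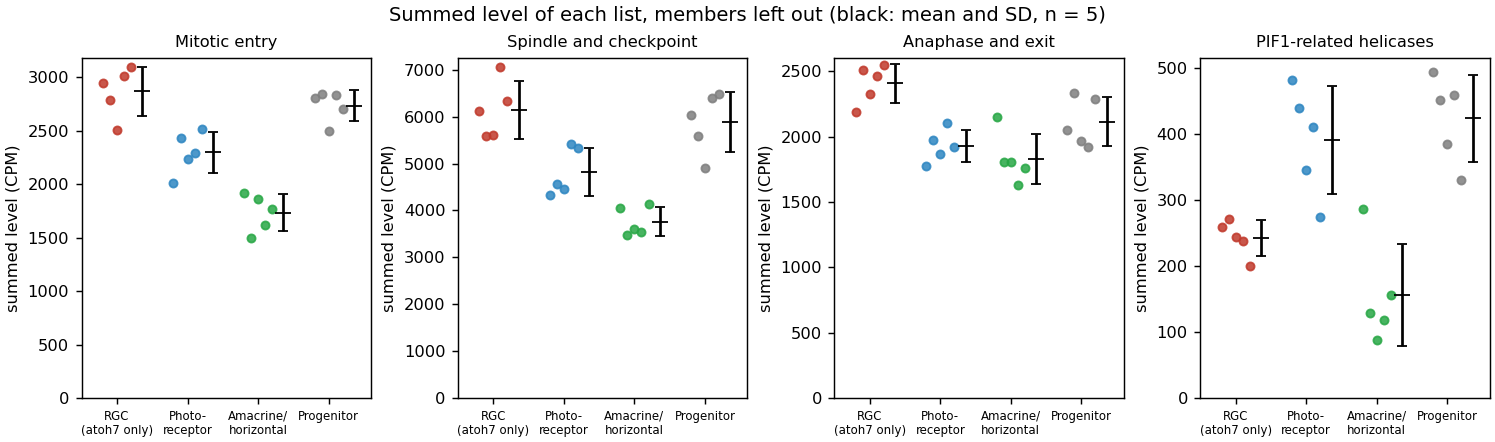
Summed level in CPM of 4 cell cycle lists in every library, members left out; points are libraries in the order of replicates 1 to 5 and black marks are the mean and SD (n = 5). For the mitotic entry, spindle and anaphase lists the atoh7-only and progenitor ranges overlap, and for the helicases the atoh7-only libraries, at 200 to 272 CPM, lie below every progenitor and photoreceptor library.

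Likeness between genes was described by Pearson's r of log2(CPM + 1) over the 20 libraries, among 6941 genes with a mean of at least 10 CPM. The libraries of a group share their gate, so an r over all 20 libraries is largely an r between group means. It was therefore also computed after the group means were removed. Among the 10 pairs of members, r was 0.59 to 0.83. With group means removed it was -0.14 to 0.49, with a median of 0.13, so within groups the members hardly moved together.

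The named genes most like cdca3 were the nuclear import receptor gene kpna2 (KPNA2 in the table, r = 0.89, and 0.76 with group means removed) and prc1b (PRC1 in the table, r = 0.83 and 0.74). The pair kept a high r within groups. Both were picked for their r over all 20 libraries, which holds the part within groups, so the choice itself favours this. For troap they were the anaphase activator gene cdc20 (r = 0.81 and 0.15) and kpna2 (r = 0.81 and 0.31), whose likeness lay mostly in the group means. For pif1 they were kpna2 (r = 0.78 and 0.44) and the Notch effector gene RBPJ (r = 0.73 and 0.64). For cdc14b they were the DNA repair gene ERCC1 (r = 0.76 and 0.66) and NELFB, a subunit of a complex that pauses RNA polymerase (r = 0.74 and 0.40). For cdkn1ba they were the cohesin gene rad21a (r = 0.77 and 0.71) and eif4enif1, which encodes a partner of a cap-binding factor (r = 0.74 and 0.49). Since cdkn1ba was at or near 0 counts in most libraries outside the atoh7-only fraction, its r values rest on few libraries. A single gene, kpna2, was thus among the nearest genes of 3 of the 5 members. Because the members were chosen for a peak in the atoh7-only libraries, a gene with that peak can come near several of them. Nothing is read from kpna2 being shared.

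In the atoh7-only replicates kpna2 stood at 768, 715, 755, 1175 and 997 CPM. Progenitors held 648, 600, 499, 804 and 653 CPM, photoreceptors 410, 429, 251, 315 and 370 CPM, and amacrine and horizontal cells 595, 382, 410, 447 and 551 CPM. Replicate 4 was the highest of both the atoh7-only and the progenitor group, as it was for cdca3, and progenitor replicate 4 overlapped the atoh7-only range. The gene was higher in the atoh7-only fraction than in photoreceptors by a log2 difference of 1.31 (SE 0.19, edgeR adjusted p = 0.000371) and than in amacrine and horizontal cells by 0.89 (SE 0.19, edgeR adjusted p = 0.0221), and its difference from progenitors was 0.46 (SE 0.19, edgeR adjusted p = 0.228).

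The level of prc1b, which bundles microtubules of the spindle midzone, was 154, 146, 103, 156 and 127 CPM in the atoh7-only replicates. Progenitors held 54.5, 66.3, 38.8, 73.1 and 68.4 CPM, all lower, and the log2 difference was 1.19 (SE 0.31, edgeR adjusted p = 0.0375). Photoreceptor replicate 2 at 133 CPM and amacrine and horizontal replicate 1 at 110 CPM reached into the atoh7-only range. Photoreceptor replicate 2 was also the highest of its group for cdca3. The activator gene cdc20 averaged 229 ± 29.1 CPM in the atoh7-only fraction, 194 ± 38.5 CPM in progenitors, 134 ± 21.5 CPM in photoreceptors and 114 ± 24.6 CPM in amacrine and horizontal cells. It was higher in the atoh7-only fraction than in photoreceptors by 0.77 (SE 0.19, edgeR adjusted p = 0.0294) and than in amacrine and horizontal cells by 1.01 (SE 0.19, edgeR adjusted p = 0.0101), and its difference from progenitors was 0.24 (SE 0.19, edgeR adjusted p = 0.744).

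**Figure D4:**
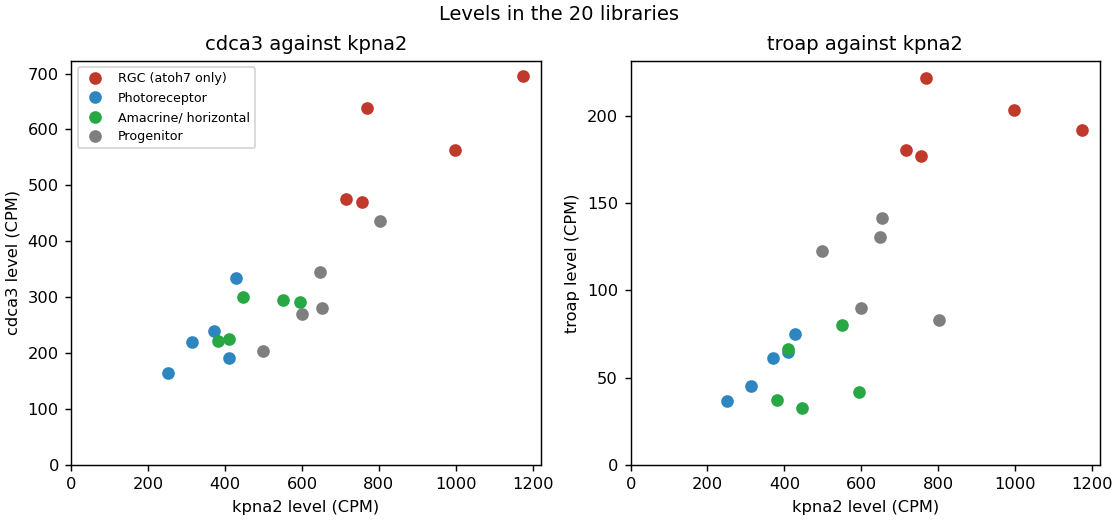
Level in CPM of cdca3 and of troap against the level of kpna2 in CPM in the 20 libraries, coloured by group, with RGC for the atoh7-only fraction. The cdca3 points follow kpna2 within groups as well as between them (r = 0.76 with group means removed), while the troap points separate into groups (r = 0.31 with group means removed).

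The other 7 genes in which all 5 atoh7-only libraries lay above the other 15 were not cell cycle regulators by list. Transcription factors made up 4 of them. OTX2 averaged 795 ± 55.3 CPM in the atoh7-only fraction and 532 ± 133 CPM in amacrine and horizontal cells, the next highest group. FOXN4 averaged 703 ± 87.6 CPM, with 520 ± 90.6 CPM in progenitors. The Myc genes mycla and MYC averaged 270 ± 36.8 CPM (185 ± 6.25 CPM in progenitors) and 124 ± 24.9 CPM (78.2 ± 10.3 CPM in amacrine and horizontal cells). The remaining genes were RAB10 at 218 ± 7.23 CPM, LPGAT1 at 56.0 ± 8.39 CPM and ARMT1 at 15.3 ± 2.68 CPM. Their lowest atoh7-only library was 1.01 to 1.13 times the highest other library.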

How the data were processed

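The authors deposited a table of raw read counts per gene, made with GSNAP on GRCz11 and featureCounts 1.6.3 over exons of Ensembl release 95, without regard to strand and with a mapping quality of at least 1, per the file headers. Base calls were converted with bcl2fastq 2.19.1, per the submitters' processing notes. The 92 spike-in sequences were left out.

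The test was that of edgeR 4.0.16 under R 4.3.3 (filterByExpr, TMM scaling, 1 mean per group over 20 libraries, quasi-likelihood test, Benjamini-Hochberg over 13838 genes, threshold 0.05). A CPM value is 1e+06 times a count over the TMM-scaled library size. The precision of a level at 0 is the level of 3 counts. Symbols matched 29201 of 32520 genes, and 142 of 148 cell cycle names, 3 of them members, were found. On simulated data the fit returned the fold changes without bias and few false calls, but it missed the majority of the changed genes. The simulation gave every gene the same set spread, not the spread measured here, so the share missed need not hold for these libraries. The share that the fit had to recover was lowered after a stricter requirement had failed.

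The members and lists were chosen with earlier results of these data known. Genes named were the members, their paralogs and partners, up to 12 list genes with the smallest adjusted p in a comparison of the atoh7-only fraction, the 2 genes most like each member, and the genes whose 5 atoh7-only libraries lay above the other 15 (means of at least 10 CPM for the last 2 sets). Alternatives were other size factors, no filter, DESeq2 1.42.0, a replicate block, only the groups compared, a library track covariate and each library left out. Same-numbered libraries share a letter, or the lack of one, in their names, but each letter also recurs under another replicate number. Nothing in the labels says that replicate numbers or letters mark shared pools, so p-values measure the spread between these libraries.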

Additional observations from a re-analysis of the deposited data

Results flagged for a closer look

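In 68 sets of 5 libraries (a gene in a group), 4 had a library far from the other 4 by Dixon's test, of which chance flags about 1 in 20. The level of cdkn1ba was 2.88 CPM in photoreceptor replicate 4, against 0.0996 to 0.667 CPM in the rest of that group. It was 1.77 CPM in amacrine and horizontal replicate 4, against 0 in the other 4 libraries. In amacrine and horizontal replicate 2, ccna2 was low at 122 CPM and btg1 was high at 1584 CPM. Outside the genes, 6 spike-in counts in amacrine and horizontal replicate 1 were above the 3 counts that a count of 0 allows. No cause was tested for any of these values.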

How the results depend on the processing

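All 5 members kept a higher mean in the atoh7-only fraction under every alternative run, with log2 differences of 0.60 to 2.27 for the 4 abundant members when single libraries were left out. Those of cdkn1ba were 3.32 to 4.90 over progenitors, 2.24 to 3.92 over photoreceptors and 3.47 to 10.004 over amacrine and horizontal cells, the last fitted against libraries at 0 and so no measure of size. The number of genes past the threshold rose from 718 to 1376 (photoreceptors against progenitors), 1540 to 2501 (amacrine and horizontal cells against progenitors), 1205 to 2089 (photoreceptors against amacrine and horizontal cells), and, for the atoh7-only fraction, from 398 to 930 against progenitors, 292 to 716 against photoreceptors and 114 to 704 against amacrine and horizontal cells with the DESeq2 Wald test. The list counts went from 5 to 10 (7 higher, 3 lower) against progenitors and from 9 to 24 (21 higher, 3 lower) against amacrine and horizontal cells. With only the groups compared, the counts of amacrine and horizontal cells against progenitors and of photoreceptors against amacrine and horizontal cells were 600 and 553, those of the atoh7-only fraction against progenitors and photoreceptors were 691 and 764, and the list counts were 11 (7 higher, 4 lower) against progenitors and 5 against amacrine and horizontal cells. Without a filter the list count against progenitors was 3.

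When each library was left out in turn, the 6 counts in the order above ranged over 527 to 1127, 1116 to 1682, 698 to 1275, 254 to 657, 202 to 527 and 68 to 235. The list counts ranged over 2 to 9, 7 to 16 and 6 to 16 against progenitors, photoreceptors, and amacrine and horizontal cells. The values above or below 1.5 times the main count came without amacrine and horizontal replicate 1 (1127, 657, 527) or 5 (235), photoreceptor replicate 3 (698), progenitor replicate 5 (254) and atoh7-only replicate 3 (68). Leaving out single libraries turned the direction of member differences in 13 cases, 8 of them of cdkn1ba, none past the threshold. The log2 differences then ranged over -0.15 to 0.069 for cdc14b in photoreceptors against progenitors, -0.13 to 0.31 for pif1 in amacrine and horizontal cells against progenitors, and, for cdkn1ba, -0.27 to 2.31 in photoreceptors against progenitors, -6.34 to 1.08 in amacrine and horizontal cells against progenitors and -0.088 to 7.42 in photoreceptors against amacrine and horizontal cells. The extremes of -6.34 and 7.42 were fitted against 4 libraries at 0 and measure nothing. The cause was not tested. The replicate block gave 1266, 1058, 408, 293 and 89 genes in the last 5 of the 6 comparisons and list counts of 5, 12 and 8. Same-numbered libraries had correlated deviations of -0.05 to 0.19, not above 0.1 in every pair, so the numbers were not taken to pair the samples. Other scalings of the separation from the other 15 libraries were chosen after seeing the data: unscaled CPM kept 4 of the 5 members separated among 15 genes in all, and median-of-ratios factors kept 5 among 12 genes. At these depths, cdkn1ba had 0 counts in 7 libraries, which does not show that it was absent there.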
